A study of Mus musculus with 25 samples.

Results

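The cytochrome P450 genes of mouse sperm RNA are described here. Members were the genes whose symbol began with Cyp, a family number, a subfamily letter and a gene number, and 104 of the 24358 genes in the table were found in this way. They fell into 16 families and 39 subfamilies, 12 of which had at least 2 members. The rule also took a few pseudogenes, with symbols ending in ps, and the antisense RNA Cyp4x1os. It did not take Cyp51, Tbxas1 and Ptgis, which are P450 enzymes with other kinds of symbol. By where each enzyme is known to be made, 44 members were classed as liver-restricted, 15 as broadly expressed and 6 as steroidogenic, and the other 39 were left unclassed and are called other members.

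The data were 25 all-RNA-seq libraries from sperm of the cauda epididymis, 5 for each of 5 conditions, from males aged 14 weeks. C57.CTL.F1 and FVB.CTL.F1 were sons of C57BL/6J and FVB/N females that were given corn oil by mouth from embryonic day 9 to 19. C57.D300.F1 and FVB.D300.F1 were sons of females given DEHP (di-(2-ethylhexyl) phthalate, a plasticizer with antiandrogenic effects) at 300 mg/kg/day in the same oil on the same days, and C57.D300.F2 were sons of exposed C57BL/6J F1 males and newly ordered, unexposed females. No F2 condition received only vehicle, and the number of litters behind each condition is not given in the sources used here. The sperm swam out of incised epididymides, the authors took the suspension free of debris, and they judged its purity by microscopy and by read lengths.

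Each gene had 1 deposited estimated count per condition, which the authors had made from its 5 libraries together. No value therefore has a replicate check, and no test or p-value was possible. The only error at hand was the SD of a count under the authors' Cuffdiff model, called the model SD here, which is not a spread between animals. Where 5 values are listed below, C57.CTL.F1 and C57.D300.F1 come before C57.D300.F2, followed by FVB.CTL.F1, then FVB.D300.F1. In this order the table held 8602900, 7748902, 6921688, 7568129 and 8278486 counts. Counts of 3 or fewer were read as not detected, a limit that covers counting error only.

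Reused from earlier work were the 10 C57BL/6J F1 libraries, and newly made were the other 15. DEHP was thus compared with vehicle within 1 set of libraries in each strain. C57.D300.F2 and both FVB/N conditions differed from the reused conditions in library set as well as in generation or strain, and these cannot be told apart.

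Cytochrome P450 enzymes are haem proteins that insert an oxygen atom into fatty substrates, using electrons passed on by a reductase or, in mitochondria, by a ferredoxin. Members of families Cyp1 to Cyp3 clear drugs and pollutants and are made mostly in liver, those of Cyp4 act on fatty acids, and many others each serve a single step in the making of bile acids, steroid hormones, vitamin D or cholesterol. In the male reproductive tract the best known are the steroidogenic enzymes Cyp11a1 and Cyp17a1 of Leydig cells and the aromatase Cyp19a1. Mature sperm make almost no new RNA, so RNA found in them was made in germ cells earlier or came from the fluid and cells around them.

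In GENCODE M21 on GRCm38, 103 of the 104 members were found, 98 of them annotated as protein-coding, and Cyp2d13 was not. Most lay in runs of related genes. The Cyp2c run on chr19:39007019-40187333 held 15 members, 11 of them liver-restricted, and the Cyp3a run on chr5:145345279-146113287 held 8 members with 7 liver-restricted. The Cyp2d run on chr15:82370527-82794294 held 9 members, of which 6 were liver-restricted. The run on chr4:115106323-115647723 held 12 members, among them Cyp4a10, Cyp4a12a and Cyp4x1os.

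Promoter sequence was in the RefSeq table (GRCm38.p6) for 77 members and for 17196 genes in all. In the 250 bases before the start, the letters TATAAA on either strand, the core of a TATA box, were present in 62.9% of the 35 liver-restricted members, in 0 of 11 broadly expressed members and in 13.2% of all genes. GGGCGG, the GC box of promoters without a TATA box, was present in 5.71% of the liver-restricted members, 72.7% of the broadly expressed members and 46.2% of all genes. Other letters matched sites of liver factors. AAGTCCA, an element bound by HNF4, was present in 28.6% of the liver-restricted members against 3.70% of all genes, and GTTAAT, a half-site of HNF1, in 22.9% against 6.69%. The nuclear receptor half-site AGGTCA did not mark the class, being present in 25.7% of the liver-restricted members, 24.1% of the other members, both of the 2 steroidogenic members and 14.5% of all genes, and none of the 11 broadly expressed members held an HNF4, HNF1 or nuclear receptor site of this kind. A match is a run of letters and not a shown binding site. Some members are near copies in transcript sequence, as Cyp3a41a and Cyp3a41b are, and both of these hold AAGTCCA. Members were thus not independent in these shares, and their difference from all genes was not tested.

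Promoters of liver-restricted, broadly expressed and other members are printed below as examples, from 150 bases before the RefSeq start up to the start or to the nearest GENCODE exon. Capitals mark matches to the 5 motifs on either strand, which did not overlap in these stretches. Cyp3a25, Cyp2d10, Cyp2c29 and Cyp2c50 are liver-restricted members lower in FVB/N and in C57.D300.F2, and the broadly expressed Cyp2j6 and Cyp1b1 and the unclassed Cyp2j13 are members that were not. They were taken in the order of their counts and after these were seen, leaving out members with more than 30 of these bases in an exon, and each is given on its own line. Cyp3a25 is at chr5:146009619-146009768 on the minus strand, Cyp2d10 at chr15:82407196-82407344 on the minus strand, Cyp2c29 at chr19:39286935-39287073 on the plus strand and Cyp2c50 at chr19:40089529-40089678 on the plus strand. Cyp2j13 is at chr4:96077547-96077690, Cyp2j6 at chr4:96553662-96553801 and Cyp1b1 at chr17:79715062-79715211, each on the minus strand. Cyp2d10 and Cyp2c29 have a TATA box near the start, Cyp3a25 and Cyp2c50 have none of the motifs in the stretch shown, and the other members have only GC boxes.
Cyp3a25: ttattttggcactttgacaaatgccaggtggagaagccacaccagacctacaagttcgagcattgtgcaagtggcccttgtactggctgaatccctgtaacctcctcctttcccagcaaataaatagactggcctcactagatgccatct
Cyp2d10: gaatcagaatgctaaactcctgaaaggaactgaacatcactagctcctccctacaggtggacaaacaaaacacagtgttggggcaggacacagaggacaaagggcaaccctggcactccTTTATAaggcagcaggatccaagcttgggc
Cyp2c29: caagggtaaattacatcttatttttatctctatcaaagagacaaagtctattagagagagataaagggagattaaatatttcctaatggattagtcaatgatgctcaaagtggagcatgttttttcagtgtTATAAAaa
Cyp2c50: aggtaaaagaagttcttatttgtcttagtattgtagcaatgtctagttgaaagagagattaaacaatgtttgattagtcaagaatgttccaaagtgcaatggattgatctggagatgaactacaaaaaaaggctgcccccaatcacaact
Cyp2j13: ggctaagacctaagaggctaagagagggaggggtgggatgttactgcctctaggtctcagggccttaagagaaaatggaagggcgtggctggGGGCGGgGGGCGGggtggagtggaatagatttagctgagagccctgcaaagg
Cyp2j6: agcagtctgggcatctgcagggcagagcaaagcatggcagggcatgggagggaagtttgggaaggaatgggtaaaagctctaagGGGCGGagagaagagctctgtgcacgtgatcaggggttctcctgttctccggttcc
Cyp1b1: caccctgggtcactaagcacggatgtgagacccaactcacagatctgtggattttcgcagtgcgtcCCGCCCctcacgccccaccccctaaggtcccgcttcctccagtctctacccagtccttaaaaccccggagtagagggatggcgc

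Levels of different members were compared as counts per kilobase of merged exons, since the deposited counts are not divided by length. On this scale Cyp2e1, which oxidizes ethanol and small solvents, was highest in both reused conditions with 3917 and 6515 counts per kilobase. Cyp3a11, the main drug-metabolizing enzyme of mouse liver and a testosterone hydroxylase, came next in C57.CTL.F1 with 2644, followed by Cyp2d9, a steroid hydroxylase of male liver, with 1493. In C57.D300.F2 the order was led by the fatty acid hydroxylase Cyp4a12a at 501.5, then Cyp2j13 at 329 and Cyp2e1 at 284 counts per kilobase. In FVB.CTL.F1 and FVB.D300.F1 it was led by Cyp2j13, a member of the subfamily that oxidizes arachidonic acid, at 913 and 908, with Cyp4a12a second at 728 and 638 and Cyp4f15 after it at 159 and 201. Both Cyp4a12a and Cyp4f15 are classed as liver-restricted, but kidney also makes them.

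The number of members with at least 10 counts was 63, 66, 49, 39 and 41, and the number with at least 100 counts was 39, 38, 13, 16 and 16. Counts of 3 or fewer were found for 24, 25, 33, 44 and 38 members, and 6, 2, 1, 9 and 7 members were listed at 0. The summed count of all members was 48908 and 44558 in the reused conditions, then 7098, 9894 and 9915. The liver-restricted members carried most of this gap, with sums of 36821, 34184, 2639.5, 2679.7 and 2493. The broadly expressed members summed to 5244, 5058, 1932.5, 1794 and 1773, the steroidogenic members to 81.7, 56.3, 111, 163 and 268, and the other members to 6762, 5260.5, 2414, 5257 and 5380.5. The sum of the other members in FVB/N was mostly Cyp2j13.

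**Figure D1:**
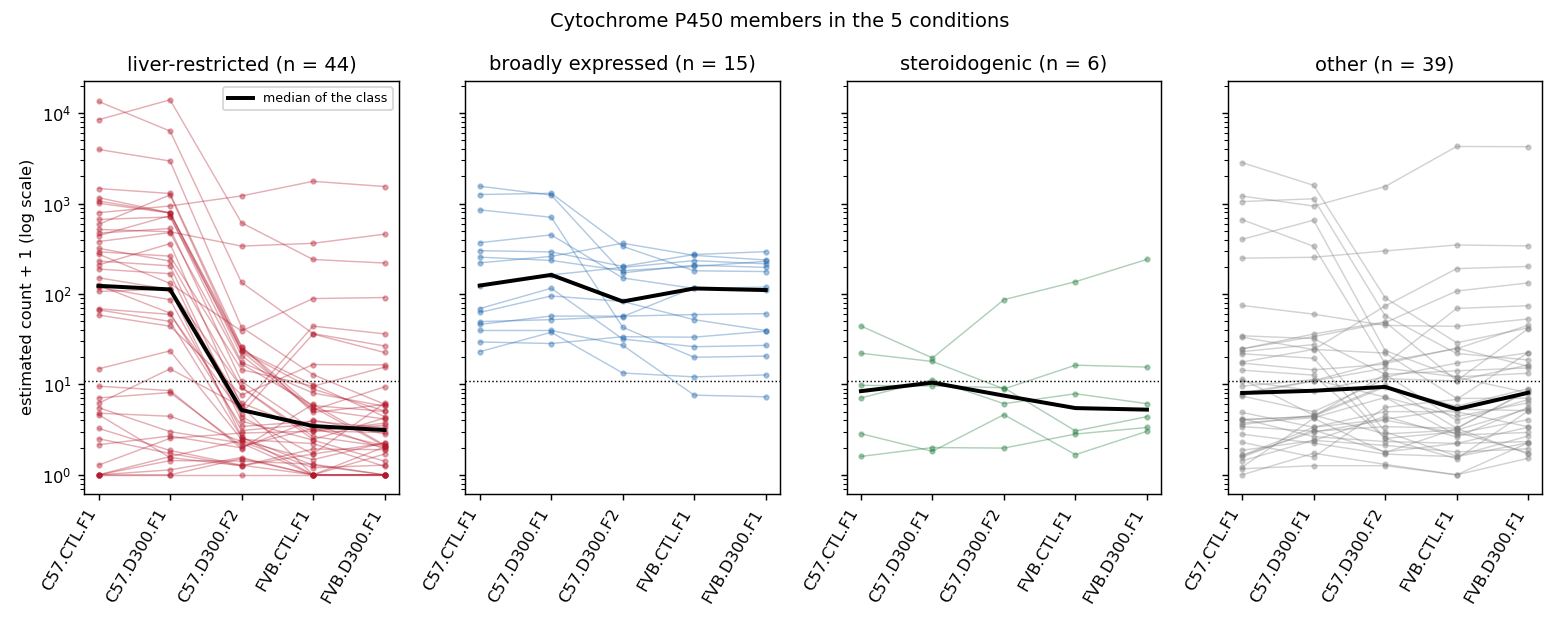
Estimated count plus 1 on a log scale for each of the 104 members in the 5 conditions, 1 panel per class, with each thin line a member and the black line the class median. Most liver-restricted members drop between C57.D300.F1 and C57.D300.F2 and are low in both FVB/N conditions, while the broadly expressed members are mixed and Cyp17a1 is the highest steroidogenic member.

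DEHP was compared with vehicle in each strain to show whether prenatal exposure left a trace in these RNAs. A member was counted as higher or lower when its log2 ratio, with 1 added to each count, reached 2 in size and when it had 10 or more counts in either condition. In C57BL/6J F1 males, 0 of 67 members were higher with DEHP and 0 lower, and 37 of the 67 had a ratio below 0. Over all 16825 genes that met the count minimum, 0.0357% were higher and 0.256% lower, so that no more than a fraction of a member was to be found at this rate. The median log2 ratio was -0.17 for 30 liver-restricted members, 0.07 for 15 broadly expressed members and -0.30 for 3 steroidogenic members, against -0.01 for all genes.

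Among the 67 members, the widest log2 ratios in C57BL/6J were -1.32 for Cyp3a57 and 1.27 for Cyp2c39. Both had low counts, 10.4 and 3.57 for Cyp3a57 and 5.18 and 13.9 for Cyp2c39. Cyp1a2, which oxidizes caffeine and aromatic amines and is induced through the aryl hydrocarbon receptor, had 588 counts under vehicle and 1247 with DEHP, or a log2 ratio of 1.08 with model SDs of 205 and 544. Cyp3a11 had 13468 and 6338 counts, a log2 ratio of -1.09, with model SDs of 11547 and 4219. Cyp17a1, the lyase that makes androgen precursors, had 43.2 and 18.6 counts with model SDs of 14.3 and 7.48, and its gap of 1.52 model SDs was the widest among the 67. In all, 10 of the 67 members differed by more than 1 model SD of the difference and 0 by more than 2. Such differences were counted for members only, and no share over all genes is at hand.

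In FVB/N males, 0 of 43 members were higher with DEHP and 0 lower, beside 0.662% and 0.0182% of 16471 genes. The class medians were -0.16 for 10 liver-restricted members and 0.38 for 2 steroidogenic members, and that of 14 broadly expressed members, 0.04, changed sign with scaling to equal totals, as did the median of all genes. Cyp2j11 had the widest gap, with 9.995 counts under vehicle and 40.3 with DEHP, or a log2 ratio of 1.91 and 2.19 model SDs. Altogether 5 of the 43 differed by more than 1 model SD, again without a share over all genes. Cyp2j13 had 4281 and 4258 counts, and Cyp4a12a 1762 and 1544, so the leading members in this strain were nearly level. A difference between the strains in the response of members to DEHP was not tested.

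The model SD was wide for the liver-restricted members with the highest counts in the reused libraries. Among members with at least 100 counts, the median ratio of model SD to count was 0.321 for 25 liver-restricted members under vehicle and 0.334 for 23 of them with DEHP, against 0.250 and 0.248 for all genes of that count and 0.288 and 0.283 for all genes with at least 1000 counts. It reached 0.857 for Cyp3a11 in C57.CTL.F1 and 0.905 for Cyp2e1 in C57.D300.F1. Wide errors were not special to P450 genes, since the germ cell gene Smcp had 35149 counts in C57.CTL.F1 with a model SD of 29703. In the newly made conditions the class median was 0.265, 0.263 and 0.263, over 4, 3 and 3 members, with 0.244, 0.248 and 0.248 for all genes. The broadly expressed members stood at 0.264 and 0.288 in the reused conditions and between 0.239 and 0.243 in the others.

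C57.D300.F2 was compared with C57.CTL.F1, from which it differed in lineage, generation and library set, and these cannot be told apart. Here 36 of 68 members were lower and 0 higher, whereas 3.61% of 17114 genes were lower and 0.584% higher. Of the lower members, 27 were liver-restricted, 2 broadly expressed and 7 other members. Cyp3a11 had 133 counts in C57.D300.F2 with a model SD of 40.6, a log2 ratio of -6.65 to C57.CTL.F1, and Cyp2d9 had 3968 and 42.0 counts, a log2 ratio of -6.53. Fewer cells of a type and less RNA per cell cannot be told apart in such bulk samples.

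The median log2 ratio of the 29 liver-restricted members that met the count minimum was -4.84, with a range from -6.65 to 0.62, and over all 44 of them it was -3.82. With counts under 3 set to 3, the median of the 29 was again -4.84. All 29 had 10 or more counts in C57.CTL.F1 but only 15 in C57.D300.F2. Many thus met the minimum only through the condition in which they were high, which lowers a median over them. The 15 broadly expressed members had a median of -0.55 and the 2 steroidogenic members one of -0.17, which turned positive with scaling to equal totals or to the upper quartile. All genes had a median of -0.04, which turned positive as well, so the turn of the steroidogenic median is not particular to that class.

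Against C57.D300.F1, the same lineage 1 generation earlier, 35 of 70 members were lower in C57.D300.F2 and 1 was higher, beside 3.3% and 0.333% of 17133 genes. The lower members were 26 liver-restricted, 2 broadly expressed and 7 other members, and the higher member was Cyp17a1 with 18.6 and 85.6 counts. The call of Cyp17a1 was lost with 10 added to each count or with a minimum of 100. The median log2 ratio was -4.82 for 30 liver-restricted, -0.53 for 15 broadly expressed and -0.88 for 3 steroidogenic members. Here too the minimum was met by more liver-restricted members in C57.D300.F1, 30, than in C57.D300.F2, 15. Beside these medians, all 15 liver markers were lower with a median of -5.18, and all 12 germ cell markers were below 0 with a median of -0.96. The steroidogenic value moved to 0.74 under upper quartile scaling, since Cyp11a1, with 10.3 counts in C57.D300.F1 before scaling, then misses the count minimum. Both comparisons share C57.D300.F2, and the strain comparison below shares C57.CTL.F1, so they are not separate evidence.

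The members nearest the threshold show where the count of lower members ended. Cyp26a1, with a log2 ratio of -2.51 to C57.CTL.F1, was the last inside and Cyp27a1, with -1.90, the next outside. Cyp26a1 breaks down retinoic acid and had 13.4 counts in C57.CTL.F1 but 1.53 in C57.D300.F2, which is under the detection limit, and its call was lost with counts under 3 set to 3, with 10 added or with a minimum of 100. Of all 68 members that met the count minimum, 53 differed by more than 1 model SD of the difference and 32 by more than 2. The same was not counted over all genes, so whether members stand out in this is not known.

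**Figure D2:**
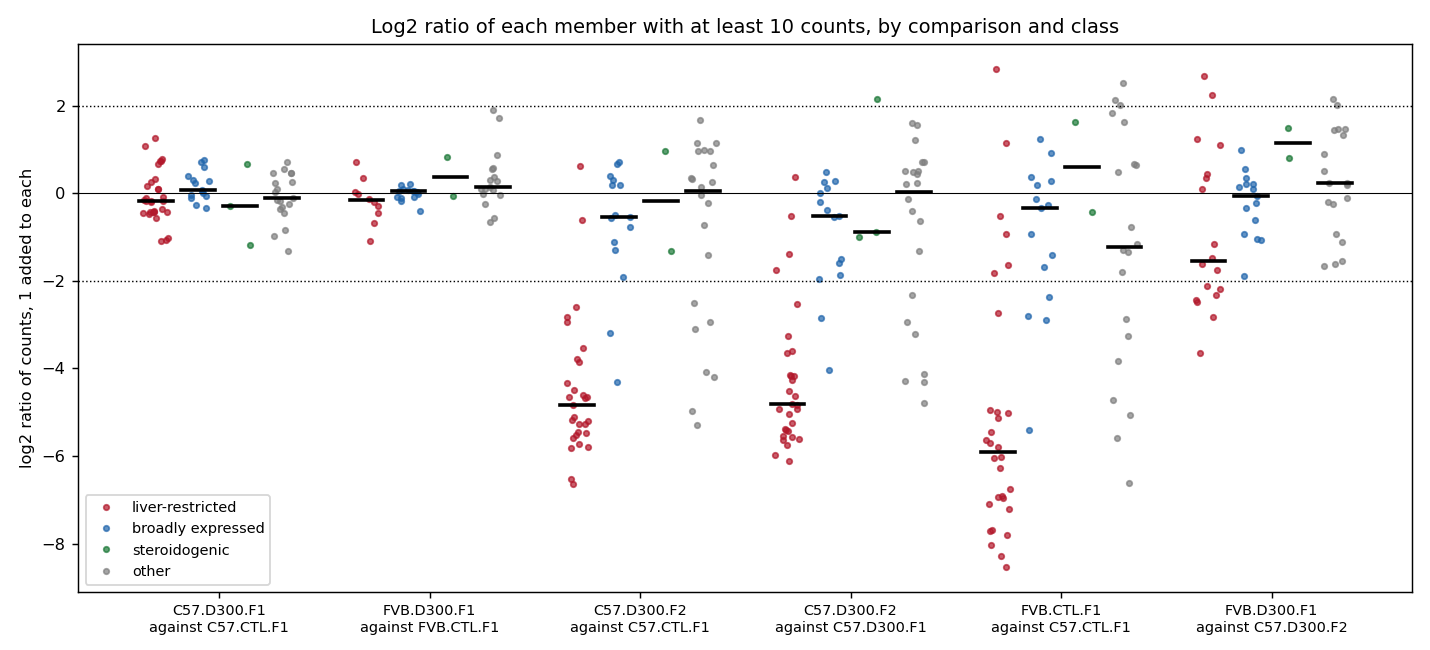
Log2 ratio of the condition counts, with 1 added to each, for every member with 10 or more counts in either condition, by comparison and class. The points of both DEHP comparisons lie between -2 and 2, whereas most liver-restricted points of the comparisons between newly made and reused conditions lie below -2.

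Without DEHP, the strains were compared as FVB.CTL.F1 against C57.CTL.F1. Of 67 members, 35 were lower and 4 higher in FVB.CTL.F1, where 8.88% of 17086 genes were lower and 1.44% higher. The lower members were 24 liver-restricted, 4 broadly expressed and 7 other members. The higher members were Cyp2c39, a retinoic acid hydroxylase, with 5.18 counts in C57BL/6J and 43.2 in FVB/N, Cyp46a1, the cholesterol 24-hydroxylase of brain, with 16.2 and 68.3, Cyp4a30b with 32.3 and 189.9, and Cyp4x1os with 23.7 and 107. Just inside the threshold on this side was Cyp46a1 with a log2 ratio of 2.01, and just outside was Cyp2j13 with 1.82. With median-of-ratios scaling Cyp46a1 was no longer counted, and with upper quartile scaling Cyp2j13 was. The calls of Cyp2c39, Cyp46a1 and Cyp4x1os were lost with 10 added to each count, and those of Cyp2c39 and Cyp46a1 with a minimum of 100.

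The median log2 ratio between the strains was -5.90 for 30 liver-restricted members, ranging from -8.53 for Cyp3a11 to 2.84 for Cyp2c39. It was -5.40 with counts under 3 set to 3 and -4.97 over all 44 members. For 15 broadly expressed members it was -0.34, for 2 steroidogenic members 0.60 and for all genes -0.03. Cyp3a11 had 35.5 counts in FVB.CTL.F1 with a model SD of 12.4. Several other liver enzymes reached the floor. Cyp2c37 had 120 counts in C57.CTL.F1 and Cyp2c54 had 209, and both were listed at 0 in FVB.CTL.F1.

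**Figure D3:**
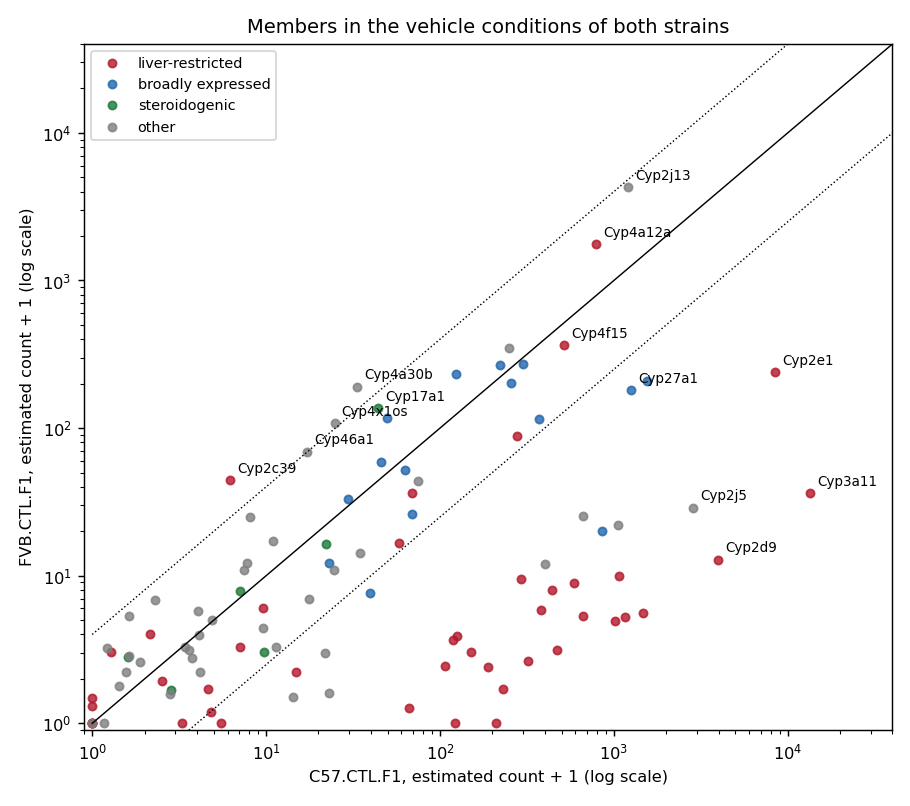
Count plus 1 of each member in C57.CTL.F1 and FVB.CTL.F1, both axes on a log scale, coloured by class, with the solid line at equal counts and the dotted lines at log2 ratios of 2 and -2. A group of liver-restricted members, among them Cyp3a11 and Cyp2d9, lies far below the lower dotted line, and Cyp4a12a and Cyp4f15 lie near the solid line.

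FVB.D300.F1 and C57.D300.F2 were both newly made and both of a DEHP lineage, and differed in strain and generation. Of 54 members, 7 were lower and 4 higher in FVB.D300.F1, beside 2.02% and 1.58% of 17122 genes. The lower members were all liver-restricted, namely Cyp1a2, Cyp2c29, Cyp2d9, Cyp2d10, Cyp2d26, Cyp3a11 and Cyp3a25, with counts in C57.D300.F2 between 22.3 and 133. Marker genes differed here as well, with 10 of 15 liver markers lower at a median of -2.56, 12 of 12 germ cell markers below 0 at a median of -1.20 and 9 of 11 epididymis markers higher, and their part in the P450 values was not tested. The higher members were Cyp2c39, Cyp46a1, Cyp4a12b and Cyp4f40. With conditions scaled to equal totals, 8 members were lower and 2 higher, as Cyp46a1 and Cyp4f40 were lost and Cyp4f18 was gained, and of all genes 2.74% were lower and 1.28% higher.

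The liver-restricted median was -1.54 over 18 members and -0.77 over all 44. Of the 44, 15 had 10 or more counts in C57.D300.F2 and 9 in FVB.D300.F1. The broadly expressed median was -0.07, and the steroidogenic median was 1.14 over 2 members. The calls in this comparison rest on low counts. With a minimum of 100 counts, or with 10 added to each count, 1 of the 11 members was still counted.

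Summed counts differed widely between subfamilies. The 9 members of Cyp3a summed to 15729.9, 8057, 186, 70.9 and 52.3. The 16 members of Cyp2c, which oxidize drugs and arachidonic acid, summed to 3510.2, 3558, 111, 92.9 and 86.6. In C57.D300.F2 all 10 of them that met the count minimum were below C57.CTL.F1 by the threshold. Of all members 36 of 68 were, and of all genes 3.61%. The 10 members of Cyp2d summed to 6608, 5171, 253, 142 and 139, and Cyp2d22, made in many tissues, kept 368, 449.9, 149.5, 114 and 118 of these.

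The coumarin hydroxylases of Cyp2a, 4 members, summed to 513, 404, 12.8, 5.35 and 2.56. Cyp2b members, which respond to phenobarbital in liver, summed to no more than 17.1 in any condition. Summed, Cyp2j, Cyp4a and Cyp4f differed less between conditions than Cyp3a, Cyp2c and Cyp2d, although 6 of the 8 Cyp4a members are liver-restricted. Their sums were 4396, 2896, 1897, 4605 and 4653 for Cyp2j, 1314.5, 1244.5, 1337, 2089 and 1865 for Cyp4a, and 1286, 1339, 679, 746 and 886 for Cyp4f. Sums within a subfamily hide members that went apart. Cyp4a12a alone had 1215 of the 1337 Cyp4a counts in C57.D300.F2. There 4 of the 6 Cyp4a members that met the count minimum were below C57.CTL.F1 by the threshold. Of all members 36 of 68 were, and of all genes 3.61%. Cyp2j5, a member of liver and kidney, had 2836, 1591, 89.8, 27.9 and 41.2 counts, while Cyp2j13 had 1209, 939, 1543, 4281 and 4258.

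**Figure D4:**
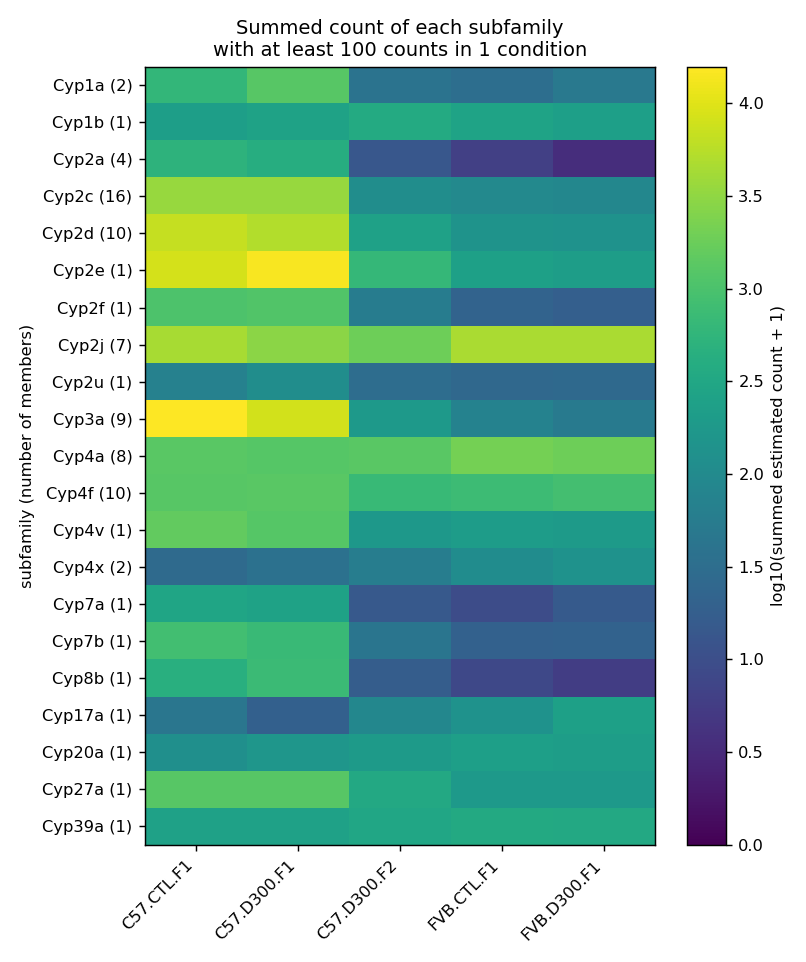
Summed count of each subfamily that had at least 100 counts in 1 condition, shown by colour as log10 of the sum plus 1, with conditions in columns and the number of members in parentheses. Cyp3a, Cyp2c, Cyp2d, Cyp2e and Cyp2f are brightest in the reused conditions, while Cyp2j, Cyp4a and Cyp4f differ less over the 5 columns.

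Cyp2e1 kept a higher count than the other lower members, with 8452, 14060.1, 612, 239.9 and 219 counts and model SDs of 5487, 12718, 168, 63.1 and 57.6. Its ratio between the newly made and the reused conditions was also narrower than that of Cyp3a11, with a log2 ratio of -3.79 between C57.D300.F2 and C57.CTL.F1. Among the Cyp1 members, the pair of aryl hydrocarbon targets went apart. Cyp1a2 had 588, 1247, 22.3, 7.88 and 4.09 counts, and Cyp1a1, which many tissues can induce, had 7.04, 10.01, 16.9, 23.8 and 44.1. Cyp1b1, an oestrogen hydroxylase of connective and steroid-producing tissues, had 220.1, 259.8, 363, 267 and 237.

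Cyp4a12a and Cyp4f15 are liver-restricted members that did not follow their class. Cyp4a12a had 793, 940.1, 1215, 1762 and 1544 counts with model SDs of 191, 259, 310.3, 481 and 409, and its log2 ratio was 0.62 in C57.D300.F2 and 1.15 in FVB.CTL.F1, each against C57.CTL.F1. It makes 20-HETE, a vasoactive fatty acid, and is driven by androgen in male kidney. Cyp4f15, a leukotriene hydroxylase, had 517, 487, 338, 363 and 458 counts, whereas its neighbour Cyp4f14 had 379, 477, 15.8, 4.85 and 4.03.

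Cyp4a12b, nearly a copy of Cyp4a12a, had 67.6, 58.5, 3.77, 35.1 and 21.6 counts. Of its transcript words of 50 bases, 49.4% also occurred in Cyp4a12a, so reads may have been assigned to the wrong copy and the split between both is uncertain. Without the Cyp4a and Cyp4f members, which kidney also makes, the liver-restricted median between the strains was -6.75. Most of the members left out lay above the class median, Cyp4a12a and Cyp4f15 among them, so a lower value followed from this choice.

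Among 4 members that male mouse liver makes more of, Cyp2d9 and Cyp7b1 were lower, relative to C57.CTL.F1, in FVB.CTL.F1 and Cyp4a12a and Cyp4a12b were not. In C57.D300.F2 all but Cyp4a12a were lower. Of all members, 35 of 67 were lower in FVB.CTL.F1 and 36 of 68 in C57.D300.F2, beside 8.88% and 3.61% of all genes. All 9 members known for female-predominant liver expression were near 0, with no member at 10 counts in any condition and sums of 13.8, 8.84, 6.50, 4.18 and 5.15. Cyp3a41a and Cyp3a41b, at or near 0 throughout, share 98.6% and 93.5% of their words with other genes and were the extreme case. In both reused conditions all 4 members of the male list thus had at least 10 counts, and none of the female list did. Some of the female list still passed the detection limit of 3 counts. Under vehicle these were Cyp2c40 with 4.54, Cyp2c69 with 3.81 and Cyp3a44 with 3.64 counts. With DEHP only Cyp2c69 passed it, with 3.45 counts. Reads from near copies remain uncertain.

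Of 4 Cyp4a members that PPAR alpha induces, Cyp4a10, Cyp4a14, Cyp4a31 and Cyp4a32, phthalates being known activators of that receptor, none passed the threshold with DEHP. Cyp4a14 had 275 counts under vehicle and 129.8 with DEHP, or a log2 ratio of -1.08, and 88.0 and 90.4 in FVB/N. Cyp4a10 had 124 and 60.4 counts in the reused conditions, a log2 ratio of -1.02, and under 3 in each of the other conditions. Cyp4a32 went the other way with DEHP, with 13.9 and 22.5 counts, a log2 ratio of 0.66. The list summed to 421, 220.3, 42.9, 97.2 and 94.1, and 3 of its 3 members with enough counts were lower, relative to C57.CTL.F1, in C57.D300.F2, as were 36 of 68 members and 3.61% of all genes. The call of Cyp4a32, with 13.9 and 1.47 counts, was lost with counts under 3 set to 3.

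Bile acid synthesis from cholesterol is a liver pathway, but some of its enzymes are also made elsewhere. Cyp7a1, its rate-limiting enzyme, had 292, 261, 13.6, 8.54 and 14.5 counts, and the sterol 12-hydroxylase Cyp8b1 had 441, 735, 16.6, 7.04 and 4.75. Cyp7b1, the oxysterol hydroxylase, had 851, 705, 41.8, 19.0 and 19.6. Cyp27a1, a mitochondrial sterol hydroxylase, was less low in the newly made conditions with 1259, 1299, 336, 179.6 and 176, and Cyp39a1, which acts on 24-hydroxycholesterol, was nearly level with 248, 254, 299, 348 and 339.6. Cyp46a1, which makes the substrate of Cyp39a1, was counted as higher in FVB.CTL.F1. Of the 6 members of this list, all met the count minimum in C57BL/6J and 5 in FVB/N, and 0 passed the threshold with DEHP. Relative to C57.CTL.F1, 3 were lower in C57.D300.F2, and 4 were lower and 1 higher in FVB.CTL.F1. The shares of lower members are near those of all members, of which 36 of 68 and 35 of 67 were lower, beside 3.61% and 8.88% of all genes. Higher in FVB.CTL.F1 were 4 of 67 members and 1.44% of all genes.

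The vitamin D list held Cyp2r1, Cyp27a1, Cyp27b1 and Cyp24a1. The liver 25-hydroxylase Cyp2r1 had 45.1, 56.1, 55.9, 58.2 and 59.7 counts, and Cyp27b1, which makes the active hormone, had between 3.99 and 15.4. Cyp24a1, which degrades it, did not exceed 3.08 counts. Of the retinoic acid hydroxylases, Cyp26b1, known from Sertoli and peritubular cells, had 73.7, 58.9, 43.9, 42.9 and 52.0 counts and Cyp26c1 no more than 4.38. Of the Cyp26 members only Cyp26a1 passed the threshold, below C57.CTL.F1 in both C57.D300.F2 and FVB.CTL.F1, and neither call held with counts under 3 set to 3.

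The broadly expressed members differed among themselves. Cyp4v3, a fatty acid hydroxylase, had 1555, 1239, 170.5, 208 and 196 counts and was below C57.CTL.F1 by the threshold in C57.D300.F2 and FVB.CTL.F1, as was Cyp7b1. Cyp2j6 had 301, 291, 201, 273 and 293 counts and Cyp4f13 had 255, 234, 180.2, 201 and 229. Cyp20a1, an orphan enzyme of unknown substrate, had 123, 162, 196, 233 and 215, and Cyp4f17 had 48.5, 51.1, 55.3, 117 and 109.5. Cyp4f18, a leukotriene hydroxylase of neutrophils, was lower in FVB.CTL.F1, with 38.5 and 6.61 counts. A GC box did not mark the steady members of the class, since Cyp2j6 and Cyp4f13 have it and so do Cyp4v3, Cyp27a1 and Cyp4f18, whereas Cyp20a1 and Cyp2r1 have none.

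Among other members, Cyp2f2, a naphthalene epoxidase of airway and liver, had 1052, 1130.4, 56.7, 20.99 and 17.7 counts. Cyp2c44, which makes epoxides of arachidonic acid, had 401, 655, 22.7, 10.99 and 7.09, and Cyp3a13, of intestine and liver, had 663, 336, 16.0, 24.3 and 14.9. These unclassed members thus followed the liver-restricted class. Cyp4a30b, of which no role is known with certainty, had 32.3, 23.2, 72.7, 189.9 and 201 counts, and Cyp4x1os had 23.7, 32.8, 47.2, 107 and 132. Cyp4x1os lies antisense to Cyp4x1 and shares 22.5% of its exon bases with it, and the authors mapped with a stranded TopHat option but give no strand option for Cuffdiff.

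Of the steroidogenic members only Cyp17a1 was well detected. Per kilobase it was 8th of the 103 annotated members in FVB.D300.F1. Cyp17a1 had 43.2, 18.6, 85.6, 136 and 241 counts with model SDs of 14.3, 7.48, 24.4, 38.9 and 58.2, and no other member of the class exceeded 100. Cyp11a1, which starts steroid synthesis from cholesterol, had between 5.12 and 10.3 counts, and Cyp21a1, the adrenal 21-hydroxylase, between 7.92 and 21.1. Cyp19a1 had 8.77, 8.62, 8.19, 2.06 and 3.40. The adrenal enzymes Cyp11b1 and Cyp11b2 were at or under 3 counts in nearly every condition, the exception being Cyp11b1 with 3.63 counts in C57.D300.F2.

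Cyp17a1 was lower with DEHP in C57BL/6J by a log2 ratio of -1.17 and higher with DEHP in FVB/N by 0.82, neither of which reached the threshold. The Leydig cell list was measured beside it, and 6 of 6 genes were found, with sums of 88.6, 89.7, 129.5, 124 and 146. Star, the cholesterol carrier, had the highest count in each condition with 77.7, 83.5, 105, 95.2 and 105 counts. Insl3, Lhcgr, Hsd3b1 and Hsd3b6 had at most 12.4 counts, and no gene of the list was listed at 0. Hsd17b3, the last enzyme of testosterone synthesis, had 17.2 and 29.8 counts in FVB/N and under 3 in C57BL/6J. The part of such cells in the Cyp17a1 counts was not tested.

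P450 enzymes need electron donors, and 8 of the 9 listed symbols were found. Por, the reductase of the microsomal enzymes, had 1255, 1035, 1028, 1658 and 1616 counts. Cyb5a had 4437, 3013, 1156, 1059 and 986, and Fdx1, the ferredoxin of the mitochondrial enzymes, had 476, 383, 134, 148 and 158. No gene of the list passed the threshold with DEHP or in C57.D300.F2, and Cyb5a was lower in FVB.CTL.F1 with a log2 ratio of -2.07. Por thus had no gap like that of the liver enzymes it serves. Among the P450 genes outside the name rule, the sterol demethylase Cyp51 had 1196, 1241, 1354, 1459 and 1379.9 counts, Ptgis, the prostacyclin synthase, had 176, 237, 232, 163 and 155, and Tbxas1, the thromboxane synthase, had 94.6, 121, 71.9, 40.7 and 32.5.

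Of 15 transcription factors known to regulate P450 genes, 14 met the count minimum in each comparison with C57.CTL.F1, and 8 did with DEHP in FVB/N. None passed the threshold with DEHP in either strain, 10 were lower, relative to C57.CTL.F1, in C57.D300.F2, and 11 were lower in FVB.CTL.F1, where 3.61% and 8.88% of all genes were. The pregnane X receptor Nr1i2 had 118, 71.6, 7.16, 4.36 and 1.82 counts, the constitutive androstane receptor Nr1i3 had 57.3, 93.1, 6.83, 1.18 and 1.65 with model SDs of 1081 and 728 in the reused conditions, far above its counts, and Hnf4a had 555, 478, 28.7, 18.4 and 17.4. Ppara had 607, 789, 84.5, 67.3 and 50.5, Nr1h3 had 189, 136, 37.0, 17.5 and 17.9, and Cebpa had 491, 529.6, 166, 109 and 85.9. The factors differed among themselves. Ahr had 260.3, 335, 229, 171 and 186, Arnt had 578, 522, 433, 629 and 614, and Rxra had 920.3, 951, 506, 509.7 and 483. Nr5a1, the regulator of steroidogenic P450 genes, had at most 3.79 counts.

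Liver markers moved with the liver-restricted members. All 15 listed genes were found, none was listed at 0, and they summed to 258872, 217345, 6074, 2722 and 2007. Alb had the highest count in both reused conditions and in C57.D300.F2 with 83529, 100464 and 2559 counts, and Fga did in FVB/N with 1433 and 1019.6. The model SDs of Alb in the reused conditions were 343315 and 443754, above its counts. Relative to C57.CTL.F1, the median over them was -5.51 for C57.D300.F2 and -7.31 for FVB.CTL.F1, and all 15 were lower in both. With DEHP, none of them passed the threshold, and the medians were -0.42 in C57BL/6J and -0.61 in FVB/N. The part of liver RNA from any source in the P450 counts was not tested.

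Germ cell markers checked the label of the samples. All 12 were found and none was listed at 0, and they summed to 93232, 78029, 31430, 8093 and 9593. Smcp had the highest count in the C57BL/6J conditions and Odf1 in FVB/N, and the protamine Prm2 had 20903, 12610, 6651, 1584 and 2019 counts. Relative to C57.CTL.F1, the median over them was -1.12 for C57.D300.F2 and -2.79 for FVB.CTL.F1, and all 12 were lower in FVB.CTL.F1. Catsper1 had only 2.84 counts there. The part of this gap in the P450 comparisons was not tested.

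Genes of the male tract followed other patterns. The 11 epididymis markers were all found, with none at 0, and summed to 24248, 28377, 30704, 37472 and 92482. Adam7 had the highest count in each condition, although per kilobase Gpx5 was above it in FVB.D300.F1. With DEHP, 10 of the 11 were higher in FVB/N, among them the caput genes Gpx5, with 71.4 and 24121 counts, and Lcn5, with 9.18 and 6686. Their model SDs with DEHP, 80054 and 9206, exceeded these counts. The 8 seminal vesicle markers, all found and none at 0, summed to 238142, 695, 1259, 2137 and 2027. Svs4 had the highest count of them in C57.CTL.F1 and Svs1 elsewhere, and all 8 were lower with DEHP in C57BL/6J, although the 63518 counts of Svs4 in C57.CTL.F1 had a model SD of 471701. The part of epididymis and seminal vesicle RNA in the P450 values was not tested in any comparison.

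Of the adrenal cortex list, 4 of 4 genes were found with none at 0, and the sums were 316.5, 276, 5561, 14334 and 5986. Mrap had the highest count in the reused conditions and Akr1b7, which is also made in the vas deferens, in the newly made ones, with 127, 98.8, 5508, 14293 and 5954 counts. Mc2r and Hsd3b1 had at most 7.397 counts. Of the kidney list, 5 of 5 genes were found with none at 0, and the sums were 7.25, 6.29, 19.6, 1189 and 436. Aqp2 accounted for nearly all of this in FVB/N with 1181 and 424 counts, and Umod, Slc12a1, Kap and Slc34a1 had at most 5.93 counts. Aqp2 was highest in FVB/N, as were Cyp4a12a and Cyp2j13, but otherwise they differed. In C57.D300.F2 Aqp2 had 8.39 counts, Cyp4a12a 1215 and Cyp2j13 1543. From FVB.CTL.F1 to FVB.D300.F1 Aqp2 had 1181 and 424 counts, Cyp4a12a 1762 and 1544, and Cyp2j13 4281 and 4258. The part of kidney or other Aqp2-making tissue in the counts of both members was not tested.

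Of 6 blood and immune genes, 5 were found and none was listed at 0, with sums of 6873, 9847, 5808, 2579 and 4555. Lyz2 had the highest count in C57.CTL.F1, Cd74 in the next 3 conditions and Hbb-bs in FVB.D300.F1, while per kilobase Hbb-bs was also highest in C57.D300.F2, and Hba-a1, which has a near copy, was under 0.01 counts throughout. Smooth muscle and connective tissue genes, 6 of 6 found and none at 0, summed to 30605, 30334, 30599, 27098 and 20577. Col3a1 had the highest count in FVB.D300.F1 and Col1a1 in the other conditions, whereas per kilobase Acta2 was highest in all but C57.D300.F2. The sum hides genes that went apart, since from C57.CTL.F1 to C57.D300.F2 Acta2 had 7041 and 3258 counts and Col1a1 8376 and 13447. The part of blood and connective tissue in the P450 counts was not tested.

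Many members share sequence, which limits how their reads could be assigned. Of 103 members with transcripts in the annotation, 27 had no word of 50 bases in common with another gene, 39 shared over 10% of their words and 5 over 50%, namely Cyp3a41a, Cyp3a41b, Cyp2c40, Cyp2c69 and Cyp2c67. How much was shared differed among the members singled out above. Cyp2j13 shared 0.127% of its words, Cyp2e1 3.87%, Cyp3a11 6.73% and Cyp2d9 21.8%, and Cyp17a1 shared none. Cyp4a12a shared 48.9%, Cyp2d10 35.8%, Cyp3a25 26.8% and Cyp2c68 43.3%, so their single counts are less certain. Summed over subfamilies, so that such reads stay together, the liver-restricted median was -4.66 in C57.D300.F2 and -5.59 in FVB.CTL.F1, each against C57.CTL.F1.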

How the data were processed

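The values were the deposited signal of 1 table, estimated fragment counts that the authors made with Cuffdiff, scaled between conditions and not divided by gene length, after base calling (with CASAVA 1.8.2), adapter clipping and aligning reads to mm10 with TopHat. No version of TopHat or Cuffdiff is given. Each condition's 5 libraries had been combined into 1 count by the authors. Only counts with status OK were used, and all 104 members had it in all 5 conditions. The 10 columns of uncertainty and dispersion variance were not used, and model SDs were square roots of the count variance. Ratios were log2 with 1 added, and no test was possible. Annotation was GENCODE M21 and RefSeq promoters. Members, classes and lists were chosen with earlier results of these data known. Named members were every steroidogenic member, the 6 highest in each other class, those with at least 100 counts in FVB.CTL.F1, any past the threshold with DEHP, Cyp2d9 and Cyp3a11. Other members named in the report were chosen after their values were seen. Counts were rescaled, and thresholds, minimums and added counts varied, as alternatives. Python 3.11.15, numpy 2.4.6, pandas 2.3.3 and matplotlib 3.10.9 were used.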

Additional observations from a re-analysis of the deposited data

How the results depend on the processing

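Of 285 alternative values of the class medians and member counts, 249 stayed within the limits and 36 moved. Signs turned for the steroidogenic median for C57.D300.F2 (F2 below) against C57.CTL.F1 (0.11 with equal totals, 0.04 with the upper quartile, 0.02 with 10 added and 0.11 without a minimum), for those against C57.D300.F1 and between the strains as given below, and for the broadly expressed medians with DEHP in FVB/N (-0.04 with equal totals, -0.06 with a minimum of 100) and in FVB.D300.F1 against C57.D300.F2 (0.17 with a minimum of 100). No liver-restricted median turned. Among 1211 alternative values of named members, 1196 stayed and 15 moved. The count of lower members ranged from 29 to 41 for F2 against C57.CTL.F1, 26 to 43 against C57.D300.F1 and 29 to 43 for FVB.CTL.F1 against C57.CTL.F1.

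A threshold of 1 gave 2 higher and 5 lower members with DEHP in C57BL/6J and 2 higher and 1 lower in FVB/N, of 67 and 43. Over all genes 184 were higher and 193 lower of 16825 in C57BL/6J, and 355 and 102 of 16471 in FVB/N. It gave 3 of 68 higher for F2 against C57.CTL.F1, 4 of 70 against C57.D300.F1 and 9 of 67 in the strain comparison. Of all genes, 702 of 17114, 461 of 17133 and 1282 of 17086 were higher there, in that order. In FVB.D300.F1 against C57.D300.F2 it gave 11 higher and 18 lower of 54 members, beside 1195 and 1813 of 17122 genes. The limit is looser, and whether members pass it more often than other genes was not tested.

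With 10 added to each count, which pulls low counts together, the liver-restricted median was -3.89 for F2 against C57.CTL.F1, -3.74 against C57.D300.F1, -4.28 between the strains and -0.87 in FVB.D300.F1 against C57.D300.F2. Higher members were then 0 against C57.D300.F1, 1 between the strains, and 0 with 1 lower in the last comparison.

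With a minimum of 100 counts, and so fewer members, 0 were higher for F2 against C57.D300.F1, where the broadly expressed median was -1.58. Between the strains 2 were higher and the steroidogenic median was 1.63, and in FVB.D300.F1 against C57.D300.F2 0 were higher, 1 lower and the liver-restricted median was -0.57. Without a minimum, where only members at 0 in both conditions were left out, the liver-restricted median was -3.85 for F2 against C57.CTL.F1, -4.16 against C57.D300.F1, -5.02 between the strains and -0.87 in the last comparison, and the steroidogenic medians were -0.042 against C57.D300.F1, -0.14 between the strains and 0.38 in the last.

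Setting counts under 3 to 3 gave a liver-restricted median of -5.40 between the strains. Without Cyp4a and Cyp4f members, most of which lay above the class median, that median was -6.75 there and -2.12 in the last comparison. Upper quartile scaling gave a steroidogenic median of 0.74 for F2 against C57.D300.F1, with fewer members tested. Equal totals gave 2 higher members in FVB.D300.F1 against C57.D300.F2, as Cyp46a1 and Cyp4f40 then fell short of the threshold.

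No paired analysis was possible because each condition has 1 pooled value. For the same reason leaving out single libraries was not run, and the spread between animals, the library set and the depth of single libraries limit what the ratios show.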
